A study of Mus musculus with 3 samples.

Results

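The genes described here encode 7 families of splicing factors, and the question put to them was how much of their chromatin-associated RNA was assigned to transcripts that are not annotated as making protein. Members were taken by gene symbol (Srsf, Tra2a and Tra2b, Hnrnp, Sf3a and Sf3b, Snrp, Prpf and U2af) among genes with at least 1 transcript annotated as protein_coding. This gave 70 of the 55450 genes in the transcript tables, made up of 11 Srsf, 2 Tra2, 20 Hnrnp, 9 Sf3, 12 Snrp, 13 Prpf and 3 U2af genes. The rule itself used no measured value, although earlier results of these data were known when it was set. All of the libraries came from primary bone marrow-derived macrophages of C57BL/6J mice (Mus musculus) that had received lipid A at 100 ng/ml for 50 min, and RNA was taken from the chromatin fraction and depleted of ribosomal RNA. Lipid A, the membrane anchor of lipopolysaccharide, is recognised by the receptor TLR4. The 3 libraries are numbered as biological replicates and form 1 group with 1 donor code, so the spread between them may be partly technical. Replicate 1 was made with 1000 ng of RNA, replicate 2 with 250 ng and replicate 3 with 500 ng. Untreated cells were not analysed here, so nothing below is a response to lipid A, and with a single group no test between conditions was possible.

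Splicing removes introns from nascent RNA while much of it is still bound to chromatin. SR proteins mostly promote the use of nearby splice sites, hnRNP proteins coat nascent RNA and often repress sites, and the small nuclear ribonucleoproteins (snRNPs) recognise splice sites and form the catalytic machine. Many SR and hnRNP genes are known to control their own output through so-called poison exons, alternative exons with a premature stop codon whose inclusion sends the mRNA to nonsense-mediated decay (NMD), and through introns that stay in nuclear RNA. The annotation names such products as transcripts of class nonsense_mediated_decay or retained_intron. RNA on chromatin also holds introns that have simply not been removed yet. Reads from those introns and reads from a stable retained-intron transcript cannot be told apart in these tables.

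The 3 libraries held 16644525, 30070348 and 25184406 estimated counts in replicates 1, 2 and 3, of which the members took between 0.738% and 0.965%. Each member reached a mean of at least 10 estimated counts, from 10.3 for Snrpn upwards, and 36 of 70 had a mean under 1000. Of the macrophage markers, 8 of 8 were detected with a mean of 10 counts or more, and their summed level was 893 to 1144 TPM (a transcript level corrected for length and scaled to a fixed sum per library). Summed levels of T cell markers were 3.05 to 4.58 TPM with 2 of 4 detected, of B cell markers 2.17 to 4.02 TPM with 1 of 3 detected, and of fibroblast markers 1.63 to 2.35 TPM with 3 of 3 detected. Neutrophil markers reached at most 0.943 TPM with 0 of 3 detected, and both erythroid markers were at 0.

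Splicing factor genes were abundant on chromatin. The median member had a level of 30.3, 17.8 and 19.9 TPM in replicates 1, 2 and 3, against 5.68, 3.88 and 4.43 TPM for the median of 14052 other protein-coding genes with a mean of at least 10 estimated counts. The difference of medians on the log2(TPM + 0.1) scale was 2.23 ± 0.139 (SD, n = 3), a 4.70-fold higher level in members, with the same sign in 3 of 3 libraries. A mean of at least 100 TPM was reached by 13 of 70 members and 661 of 14052 other genes. The 1000 ng library, replicate 1, gave the highest TPM for 60 of 70 members and for 69.6% of the other genes, and transcripts of protein-coding genes took 41.6% of its TPM, against 28.8% and 31.9% in replicates 2 and 3. What part this composition had in the single levels was not tested.

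**Figure D1:**
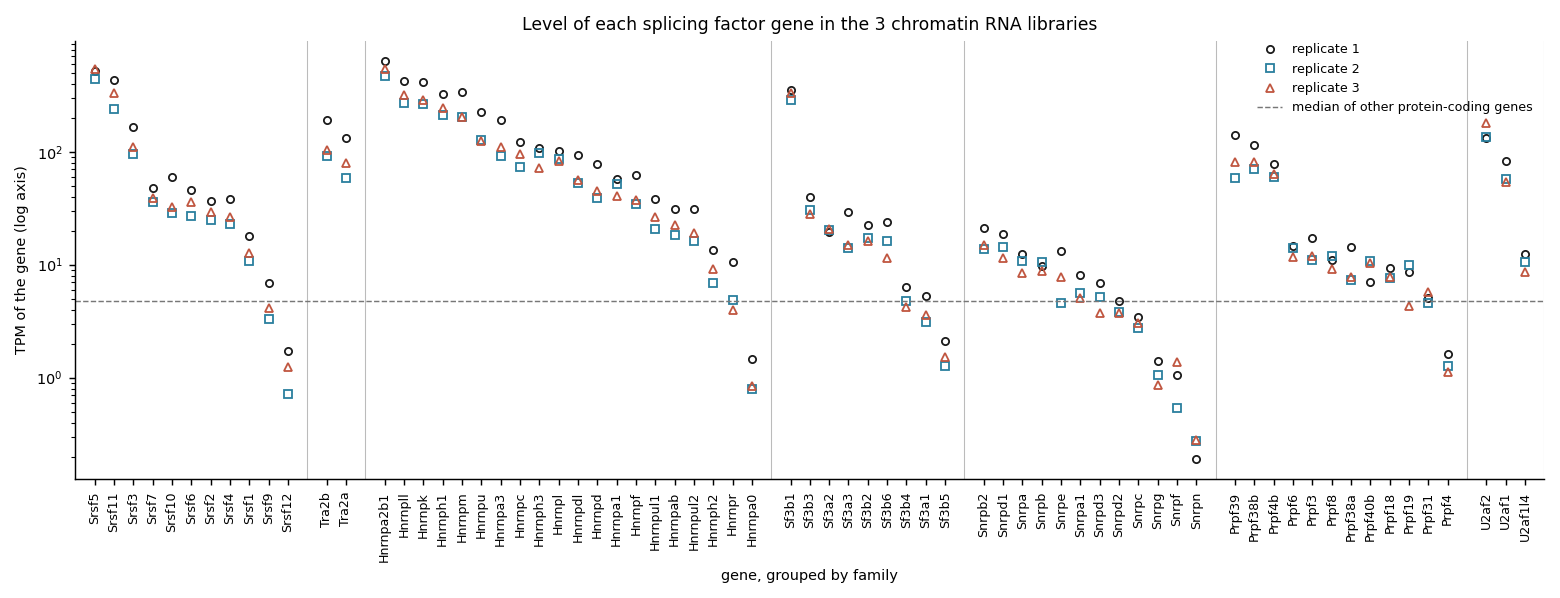
Level of 69 of the 70 genes in TPM (log axis), grouped by family and sorted by mean; circles, squares and triangles are replicates 1, 2 and 3, and the dashed line is the median of the other protein-coding genes (4.75 TPM). The highest levels are those of Hnrnpa2b1 and Srsf5, while no Snrp gene has a mean above 16.7 TPM.

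The families differed widely in level. Among the hnRNP genes, Hnrnpa2b1, which encodes the paired core hnRNP proteins A2 and B1, led all members with 640.1, 463.6 and 545.4 TPM. Hnrnpll, a regulator of alternative splicing in lymphocytes, had 421.0, 270.6 and 318.5 TPM, and Hnrnpk, which binds C-rich RNA, had 416.9, 264.8 and 289.4 TPM. The family spanned 1.04 TPM for Hnrnpa0, a gene with a single exon, to 549.7 TPM. Among the SR genes, Srsf5 had 515.8, 441.5 and 544.9 TPM and Srsf11 had 428.2, 238.2 and 330.8 TPM, whereas Srsf1, the founding SR protein, had 18.1, 10.7 and 12.8 TPM. These groups of 3 values did not overlap between Srsf5 or Srsf11 and Srsf1.

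Among the subunits of the snRNPs, 1 gene stood far above the rest. Sf3b1, the scaffold of the SF3b complex that holds the branch point, had 355.3, 284.6 and 332.1 TPM, and the next member of its family, Sf3b3, had 40.1, 30.4 and 28.3 TPM. Snrp genes, which encode Sm ring proteins and proteins specific to U1 or U2 snRNPs, had a median of 5.77 TPM, and their highest member was Snrpb2 with 21.2, 13.9 and 15.0 TPM. Snrpn, an imprinted gene used mainly in neurons, had 0.19, 0.273 and 0.282 TPM. Prpf8, the core of the catalytic centre, had 11.1, 11.9 and 9.22 TPM, against 140.7, 58.5 and 80.6 TPM for Prpf39, a U1-associated protein. U2af2, which binds the polypyrimidine tract, had 132.8, 135.1 and 178.4 TPM, and its partner U2af1, which reads the AG at the intron end, had 83.3, 57.7 and 54.4 TPM.

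The shift of the members as a group between libraries depended on the scaling, and TMM, which corrects for library composition, is given first. Their median log2 deviation from the mean of the libraries was 0.06 in replicate 1, -0.05 in replicate 2 and -0.01 in replicate 3, a range of 0.108 over the 65 members that reached a mean of 10 expected counts, against a range of 0.133 for 10236 other genes, whose deviations had the opposite sign in replicate 1 (-0.08) and replicates 2 and 3 (0.06 and 0.04). Scaled by library totals, the range was 0.442 for members and 0.201 for the other genes, so the order of the sets was reversed. Single members also varied less, with a median range between libraries of 0.364 for members and 0.571 for the other genes on the log2 scale. A range above 1 was seen in 1 of 65 members and in 18.5% of the other genes, which had lower counts, and what part depth had in this was not tested. The member was Prpf40b, a U1-associated protein, with 14.3, 32.9 and 28.5 CPM (counts per library of a fixed size, after TMM scaling) in replicates 1, 2 and 3. Prpf6, Srsf1 and Prpf8 came next among members above the count limit. Srsf1 had its highest value, 44.5 CPM, in replicate 1, where Prpf40b, Prpf6 and Prpf8 had their lowest.

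More than 50% of the RNA of the typical splicing factor gene was assigned to transcripts of other classes than protein_coding. The median member had 35.5% ± 2.8 of its TPM in this class (SD, n = 3), against 58.9% ± 2.7 for the other protein-coding genes. The difference was -23.5, -23.8 and -22.9 percentage points in replicates 1, 2 and 3, and this comparison was added after the values had been seen. Genes with no annotated transcript of another class could only show 100%. The upper quartile of the share was 100% for the other genes and 62.3% for members. What part the annotation had in the difference was not tested. Among genes with a mean of at least 10 TPM, the medians were 30.7% ± 2.7 for 47 members and 42.8% ± 2.7 for 4790 other genes. The transcript with the highest level was a protein_coding one in 27 of 70 members and in 58.2% of the other genes, and a retained_intron one in 27 of 70 members and 25.3% of the other genes. It was of class processed_transcript, which has no annotated reading frame, in 10 of 70 members and 13.1% of the other genes, and of class nonsense_mediated_decay in 6 of 70 members and 3.32% of the other genes.

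**Figure D2:**
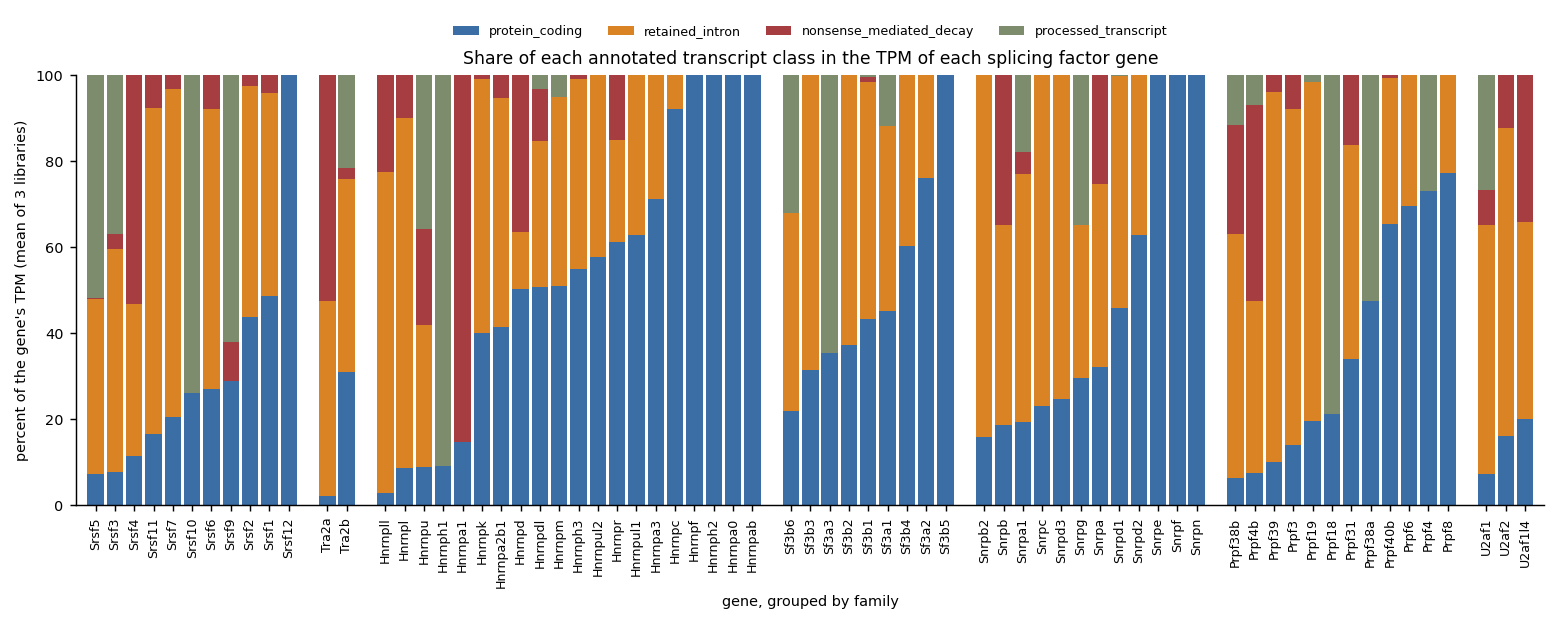
Mean share of each annotated transcript class in the TPM of 69 of the 70 genes (percent, stacked to 100, mean of 3 libraries), grouped by family and sorted by the protein_coding share. The bars run between genes with only protein_coding RNA, such as Hnrnpf and Snrpe, and genes with under 3% of it, such as Tra2a and Hnrnpll.

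The annotation itself differed between the sets. Retained-intron transcripts were annotated for 52 of 70 members (74.3%) and for 55.6% of the other genes, and NMD transcripts for 36 of 70 members (51.4%) and for 27.1% of the other genes. The 18 members with no retained-intron transcript, among them Hnrnpa1, Hnrnph1, Hnrnpf and Srsf10, could only show a share of 0. Over the 52 members that have one, the median retained-intron share was 46.3%, 49.1% and 46.5% in replicates 1, 2 and 3 (47.3% ± 1.6, SD, n = 3), against 41.9% ± 2.1 over 7810 other genes. The members were higher by 1.98, 8.70 and 5.55 percentage points, or 5.41 ± 3.36 (SD, n = 3). A share of at least 50% was found in 23 of 52 members, against 40.1% of all protein-coding genes with such a transcript, so the count lies near the background. Among genes with 2 to 4 annotated retained-intron transcripts, the medians were 46.6% ± 0.86 for 27 members and 47.1% ± 2.1 for 3792 other genes, a mean difference of -0.48 points. Its sign varied between libraries, with 45.9%, 47.6% and 46.3% for members in replicates 1, 2 and 3, against 49.5%, 46.1% and 45.6%. Members were thus lower in replicate 1 and higher in replicates 2 and 3. Across genes, the share went with the number of annotated retained-intron transcripts (Spearman's rho = 0.501 over 52 members and 0.380 over 7810 other genes) and hardly with the level (rho = 0.0963 over the members). These are correlations across genes in the same libraries and are given as descriptions.

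Within the SR and Tra2 families, retained-intron transcripts held 40.7% to 76.2% of the RNA of the genes named next. Srsf7, an SR protein that also serves mRNA export, had retained-intron shares of 83.6%, 74.7% and 70.4%, and Srsf11 had 79.0%, 77.6% and 71.5%. Srsf6 had 65.9%, 67.8% and 61.5%, all of which Srsf6-204 supplied, a transcript of 2897 bases that keeps 2 whole introns of the coding transcripts. Srsf2 had 57.0%, 55.9% and 48.3%, also from 1 transcript that keeps 2 whole introns. Srsf3, the smallest SR protein, had 46.3%, 57.7% and 52.1%, and Srsf5 had 44.8%, 38.2% and 39.2%. Srsf7 and Srsf11 lay above Srsf3 and Srsf5 in each library, while the values of Srsf2 and Srsf3 overlapped. With the expected counts described below, Srsf3 (76.3%, 82.2% and 80.1%) lay above Srsf7 (82.4%, 74.9% and 72.4%) in replicates 2 and 3. Srsf2 (56.9%, 54.2% and 47.0%) lay below Srsf3 in each library there. The Tra2 proteins bind GAA-rich enhancers. Tra2a had 45.9%, 44.2% and 46.3% and Tra2b had 46.3%, 42.4% and 46.0%, with no separation between the pair. With expected counts Tra2a had 56.4%, 53.2% and 54.2%, above Tra2b with 49.7%, 44.0% and 47.2% in each library.

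The hnRNP genes had the lowest family median, 39.2% ± 0.79, and also the widest contrasts between members. Hnrnpl, which binds CA repeats, had retained-intron shares of 87.8%, 78.2% and 78.2%, and its paralog Hnrnpll had 81.3%, 71.4% and 70.7%. Both were highest in replicate 1 and alike in replicates 2 and 3. Hnrnpk had 65.0%, 56.7% and 55.5%, spread over several of its 13 annotated retained-intron transcripts, and Hnrnpa2b1 had 61.8%, 49.0% and 48.9%. At the other end, Hnrnpc, which binds uridine tracts, had 7.8%, 9.7% and 6.2%, and Hnrnpd, a regulator of AU-rich mRNAs, had 17.1%, 14.2% and 8.4%. Hnrnpr had the widest spread of this family, with 14.8% in replicate 1, 37.6% in replicate 2 and 18.97% in replicate 3.

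Retained-intron shares varied widely among subunits of the spliceosome core. In the Snrp family the median was 54.1% ± 7.0 over 9 genes, led by Snrpb2 (84.4%, 85.4% and 82.7%), whose protein belongs to the U2 snRNP, and by Snrpc (84.8%, 74.5% and 71.7%), a U1 protein. Snrpd3, a member of the Sm ring, had 79.0%, 79.9% and 66.9%. At the low end were Snrpg with 35.6% ± 6.7, Snrpd2 with 37.1% ± 4.15 and Snrpa with 42.7% ± 3.1 (SD, n = 3), and 5 of the 9 genes had at least 50%. The place of Snrpd2 depended on the quantification, with 81.1% by expected counts, and Snrpg had a mean of only 12.3 estimated counts. In the Sf3 family the median was 47.0% ± 2.7 over 7 genes, of which 3 had at least 50%. Both counts rest on few genes and stand against 40.1% of all protein-coding genes with such a transcript. Sf3b3 had 71.8%, 66.4% and 67.3%, Sf3b2 had 70.8%, 62.7% and 55.3%, and Sf3b1 had 61.6%, 49.6% and 53.7%, whereas Sf3b4 had 39.8% ± 10.5 and Sf3a2 had 22.7%, 25.7% and 23.8%.

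Among the Prpf genes, Prpf39 had 74.1%, 92.4% and 91.7%, the highest mean of the members with estimated counts (86.0% ± 10.4, SD, n = 3). In replicate 1 Hnrnpl, Snrpc, Snrpb2 and Srsf7 were among the members above it, and with expected counts Snrpb2 (96.1%) and Srsf11 (89.2%) exceeded Prpf39 (81.3%). Prpf19, a ubiquitin ligase of the spliceosome, had 77.0%, 86.1% and 73.4%, and Prpf3, a U4/U6 protein, had 80.8%, 76.4% and 77.1%. Prpf8 was lowest with 28.8%, 26.8% and 12.9%, and Prpf6 had 29.7%, 26.5% and 34.9%. The family median was 46.5% ± 8.1 over 9 genes, the largest SD of the families. U2af2 had 75.6%, 63.5% and 75.9%, and U2af1 had 62.2%, 57.8% and 53.4%. Over all families, the share was highest in replicate 1 for 27 of 52 members and lowest in replicate 3 for 27 of 52. This was not counted for the other genes, whose median share was also highest in replicate 1 (44.3%, 40.4% and 40.9% in replicates 1, 2 and 3). The order is therefore not shown to be particular to the members. The order of the members was similar in each pair of libraries (Spearman's rho of 0.887 to 0.913 over 52 genes).

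What a retained-intron transcript keeps differs from gene to gene. The 52 members have 165 of them, with a median length of 833 bases, and a median of 43.6% of their bases lies outside the exons of coding transcripts, against 43.1% for 19214 such transcripts of 7810 other genes. A whole intron of a coding transcript is kept in 57 of the 165, and 16 are a single exon. The 56 kept introns that could be read with both ends have a median length of 341.5 bases, between 71 and 3580. The 828 introns of the members' coding transcripts have a median of 706 bases. By rule, a kept intron holds no exon base of any coding transcript. The 828 had no such limit, so the lengths are not like for like. All 56 begin with GT and end with AG. The ends of 2 kept introns are shown because they enclose an exon with a premature stop codon. Each is 30 bases, 5′ to 3′, read from the GENCODE M21 transcript (GRCm38), with the GT or AG of the intron in capitals.
Srsf7-207, intron start, chr17:80205242-80205271, minus strand: gaagaagcagGTatttaattaatgaaggaa
Srsf7-207, intron end, chr17:80204378-80204407, minus strand: ttttctaacttaaaaaatAGgtcacgatct
Srsf3-204, intron start, chr17:29038615-29038644, plus strand: ctcggcgcagGTacttgagagagcaccttt
Srsf3-204, intron end, chr17:29040755-29040784, plus strand: tttactgtttctgcttctAGatccccaaga
The Srsf7 intron has 874 bases and the Srsf3 intron 2150 bases, and both lie between coding exons.

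The NMD share was small in most members. Its median over the 36 members with an annotated NMD transcript was 8.60%, 8.31% and 8.43% in replicates 1, 2 and 3, against 7.13%, 7.55% and 7.43% over 3815 other genes, a difference of 1.08 ± 0.362 percentage points (SD, n = 3). A share of at least 50% was reached by 3 of 36 members, against 7.32% of all protein-coding genes with such a transcript. These were Hnrnpa1 with 86.8%, 84.8% and 84.7%, Srsf4 with 60.4%, 54.5% and 44.6%, and Tra2a with 53.3%, 53.1% and 51.1%. Prpf4b, a kinase of the spliceosome, came next with 42.7%, 47.7% and 46.3%, then Hnrnpd with 31.7%, 38.5% and 39.4% and Snrpb, an Sm ring gene, with 40.2%, 26.3% and 37.9%. Srsf9 had 25.2%, 2.1% and 0, and its share rests on replicate 1. The share was lowest in replicate 1 for 20 of 35 members with a value above 0 and highest in replicate 3 for 20 of 35. This was not counted for the other genes, whose median given above was also lowest in replicate 1 but highest in replicate 2.

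All 70 NMD transcripts of the members place their stop codon before the last exon junction, at a median distance of 341.5 bases. Such an arrangement can mark an mRNA for decay, but here it belongs to the annotation of the class and was not measured. The transcripts reach it by different routes. In 14 transcripts of 9 genes the stop codon is the one of a coding transcript and the extra junction lies behind it. This was the case for both Hnrnpa1 transcripts, Hnrnpa1-204 with 44.9% ± 10.8 and Hnrnpa1-203 with 40.5% ± 9.8 of the TPM of the gene, for Prpf4b-208 with 31.1% ± 3.6, and for Hnrnpd-208 with 21.2% ± 5.5. The split between both Hnrnpa1 transcripts changed from library to library (56.1%, 34.5% and 44.1% for Hnrnpa1-204), while their sum stayed between 84.7% and 86.8%. Hnrnpa1 has processed pseudogenes, and how reads that match both were shared is not given in the sources used here.

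In 25 NMD transcripts of 18 genes the premature stop lies in an exon that no coding transcript contains. These stretches are shown for the genes the next results turn on, between the first base of that exon and the stop codon, which is in capitals. They are 5′ to 3′ on the transcribed strand, from the GENCODE M21 transcripts (GRCm38).
Tra2a-202, chr6:49252965-49253108, minus strand: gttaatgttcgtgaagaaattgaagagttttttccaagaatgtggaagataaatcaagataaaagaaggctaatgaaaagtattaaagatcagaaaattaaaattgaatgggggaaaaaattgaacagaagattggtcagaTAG
Tra2b-206, chr16:22259181-22259261, minus strand: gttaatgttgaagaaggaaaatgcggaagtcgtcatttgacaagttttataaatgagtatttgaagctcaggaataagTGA
Srsf3-201, chr17:29039454-29039487, plus strand: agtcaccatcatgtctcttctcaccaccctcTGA
Srsf7-203, chr17:80205054-80205081, minus strand: gtttcttcgtttgagtcagtcgcctTGA
Srsf4-204, chr4:131884295-131884390, plus strand: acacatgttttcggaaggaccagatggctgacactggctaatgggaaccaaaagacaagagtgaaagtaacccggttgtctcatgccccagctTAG
Hnrnpll-203, chr17:80044976-80045022, minus strand: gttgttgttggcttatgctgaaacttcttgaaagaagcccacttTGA
The exons of the paralogs Tra2a and Tra2b begin with the same 9 bases, gttaatgtt, and then diverge. The whole exons have 306 bases in Tra2a-202, 276 in Tra2b-206, 456 in Srsf3-201, 460 in Srsf7-203, 188 in Srsf4-204 and 83 in Hnrnpll-203.

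The class that held the premature stop differed between these genes, whereas the share of RNA that spans it overlapped between 3 of them. Transcripts of any class that include the stop codon of this exon held 53.3%, 53.1% and 51.1% of the TPM of Tra2a, where the NMD transcript Tra2a-202 supplied all of it. In Tra2b they held 55.0%, 49.2% and 52.8%, yet the NMD class supplied 2.48% ± 1.85, and most came from the retained-intron transcript Tra2b-203 (28.2% ± 2.3) and the processed transcript Tra2b-202 (21.7% ± 2.6). In Srsf7 they held 59.6%, 48.2% and 49.5%, of which 49.2% ± 6.6 came from Srsf7-207 and Srsf7-206, which keep the intron shown above with the 460-base exon inside it. The values of Tra2a, Tra2b and Srsf7 overlapped. In Srsf3 they held 23.4%, 29.0% and 26.8%, below these in each library, and again 23.0% ± 2.8 came from retained-intron transcripts and 3.43% ± 0.74 from NMD transcripts. In Srsf7 and Srsf3, a transcript that keeps the intron spans the exon without splicing it in. Tra2b-203 joins the exon at its first base but runs on past its end, and Tra2b-202 begins upstream of it. Among these genes, only in Tra2a did the share come wholly from a transcript that splices the exon in. The shares are therefore no common measure of exon use.

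**Figure D3:**
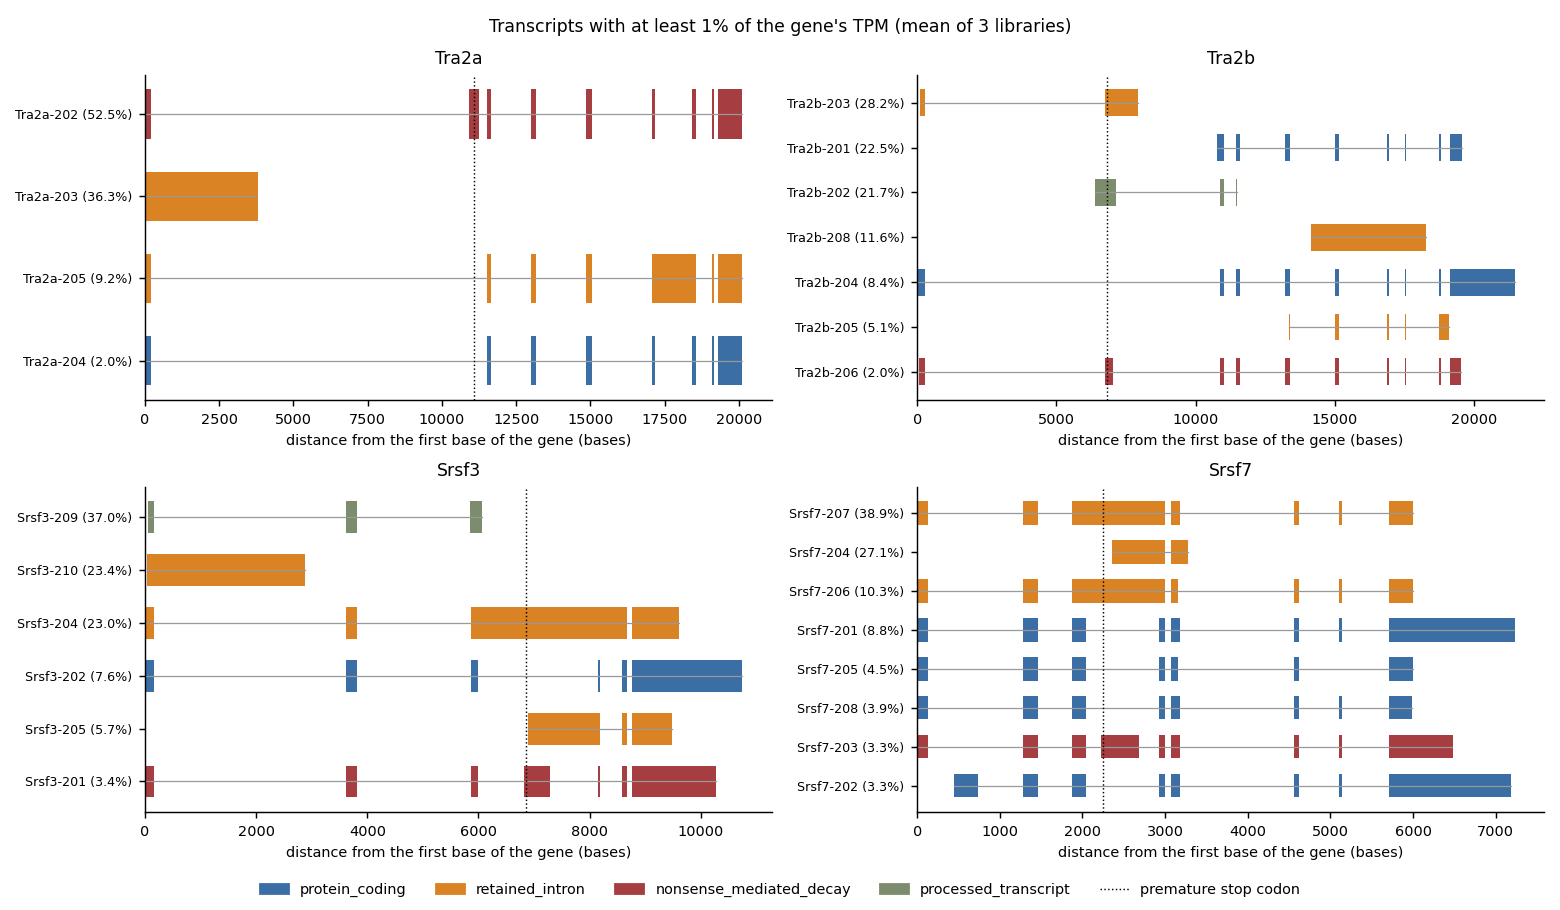
Exons (boxes) of the transcripts with at least 1% of the TPM of Tra2a, Tra2b, Srsf3 and Srsf7, as distance in bases from the first base of the gene in the direction of transcription, coloured by class and labelled with the mean share of 3 libraries. The dotted line marks the premature stop, which falls in Tra2a-202 (52.5%), in Tra2b-203, Tra2b-202 and Tra2b-206, in Srsf3-204 (23.0%) and Srsf3-201, and in Srsf7-207, Srsf7-206 and Srsf7-203.

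The same view of the other genes gave a wide range. Srsf9 had 62.1% ± 7.9, mostly in the processed transcript Srsf9-202 (53.0% ± 10.8). Srsf4 had 53.2% ± 8.0 of its TPM in transcripts with the stop, all of it in NMD transcripts, and Hnrnpll had 15.8%, 25.8% and 26.2%, all in Hnrnpll-203. Sf3b1 had 47.0% ± 5.1, of which 45.8% ± 5.0 was in retained-intron transcripts and 1.21% ± 0.20 in the NMD transcript Sf3b1-208. Prpf39 had 40.5% ± 10.9, again mostly retained-intron RNA, with its lowest value of 28.1% in replicate 1. Snrpb had 69.8%, 49.6% and 61.2%, divided between Snrpb-203 of the NMD class and Snrpb-202 of the retained-intron class.

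**Figure D4:**
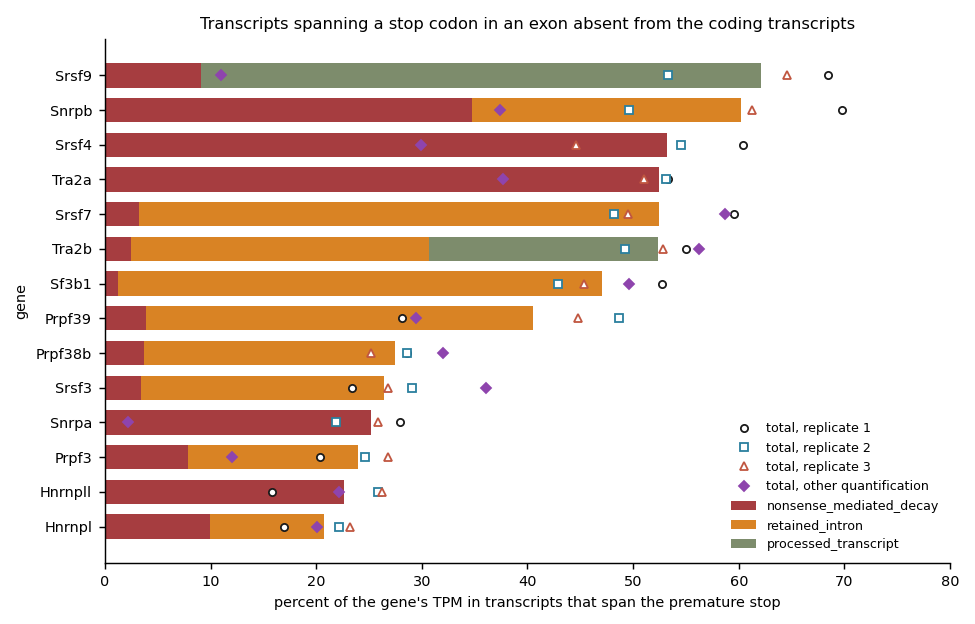
Percent of the TPM of each gene in transcripts that span the stop codon of an exon absent from its coding transcripts, for the 14 genes with the highest values; stacked bars are class means over 3 libraries, open symbols the totals per library, and purple diamonds the mean of the other quantification. Tra2a and Srsf4 are filled by the NMD class, and Srsf7, Sf3b1 and Prpf39 mostly by the retained-intron class.

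With estimated counts, a further set of members had most of its RNA in transcripts without an annotated reading frame. These genes were picked for that after their values had been seen. Hnrnph1, which binds G-rich RNA, had 261 ± 58.6 TPM, of which 91.0% was of class processed_transcript and 9.04% protein_coding (means, n = 3). Prpf18 had 78.9%, Srsf10 74.0%, Sf3a3 64.6% and Srsf9 62.0% of their TPM in this class, and Srsf5, the second most abundant member, had 52.0%. In all, 8 of 28 members with such a transcript (28.6%) had at least 50% of their TPM in it. Among 6183 other genes it was 21.9%, so the count lies near that of the other genes. With the expected counts described next it was 5 of 28 members (17.9%), against 9.61% of the other genes. Hnrnph1 (88.7%) and Srsf10 (68.9%) stayed above 50% there. Prpf18 (49.7% ± 21.8), Srsf5 (45.5%), Sf3a3 (37.8%) and Srsf9 (11.0%) fell below it. Of the class, Hnrnph1-204 was the most abundant in Hnrnph1 with 22.8% ± 3.6, and it keeps 2 whole introns of the coding transcripts although its class does not say so.

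The deposited tables hold a separate quantification with expected counts, and class shares of single genes depended on it. There the median retained-intron share was 53.6% ± 3.1 in members and 40.4% ± 4.0 in the other genes, a difference of 13.1 ± 0.954 percentage points. A share of at least 50% was found in 31 of 52 members, including all 23 of the estimated-count tables, against 2690 of 7810 other genes. Median NMD shares were 7.62% ± 2.0 in members and 3.75% ± 1.2 in the other genes. The protein_coding share was again lower in members, with 37.2% ± 6.3, against 64.6% ± 3.2 in the other genes. The retained-intron share of Snrpd2 was 37.1% ± 4.15 with estimated counts and 81.1% with expected counts, and that of Srsf3 was 52.0% ± 5.7 and 79.5%. U2af1 had 57.8% ± 4.4 and 82.7%, and Sf3b6 had 46.0% ± 4.3 and 71.7%. Others were lower with expected counts, among them Snrpg (35.6% ± 6.7 and 15.2%), Snrpc (77.0% ± 6.9 and 58.2%) and Prpf19 (78.8% ± 6.5 and 62.5%), and 29 of 52 members were higher. The lower means of Snrpg and Snrpc did not hold in each library. In replicates 1, 2 and 3, Snrpg had 0, 45.5% and 0 there, on 3, 6 and 2 expected counts of the gene. Snrpc had 84.0%, 49.1% and 41.7%. NMD shares of Snrpb (34.8% ± 7.4 and 8.38%), Snrpa (25.2% ± 3.1 and 2.22%) and Srsf4 (53.2% ± 8.0 and 29.9%) were lower with expected counts, while that of Hnrnpd was higher (36.5% ± 4.2 and 53.7%). The spanning shares of Tra2b, Srsf7, Sf3b1 and Hnrnpll were 56.2%, 58.7%, 49.6% and 22.2% there, close to the values above, while those of Tra2a (37.7%) and Srsf9 (11.0%) were lower. Srsf4 (29.9%), Snrpb (37.4%) and Prpf39 (29.4%) were lower there as well, and Srsf3 was higher (36.0%), so that Srsf3 and Tra2a lay close together. Snrpn and Srsf12 are listed at 0 in the expected-count transcript tables.

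**Figure D5:**
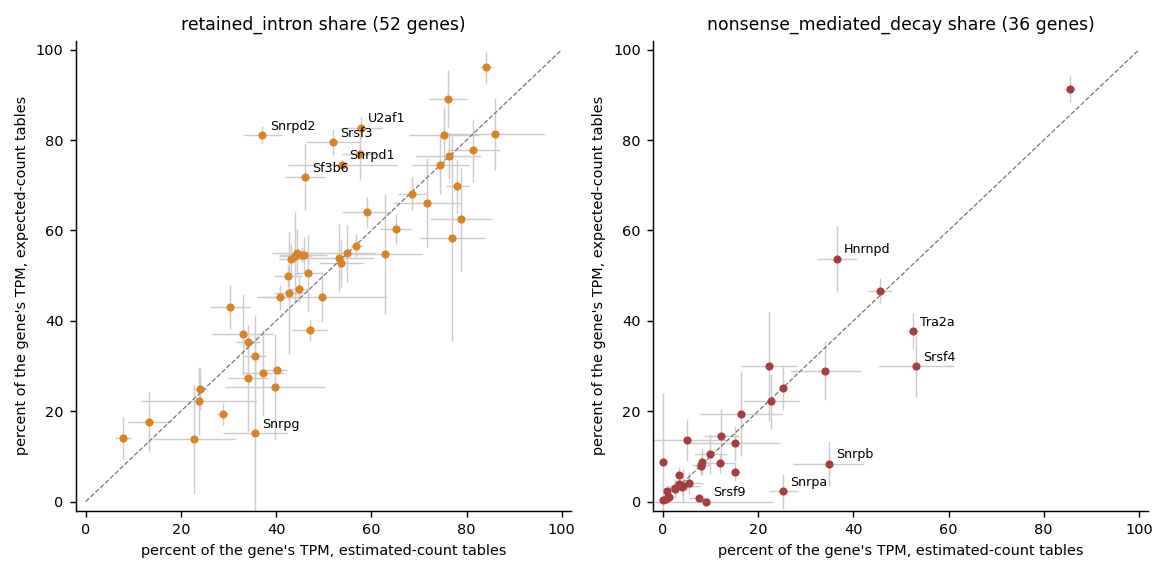
Retained_intron share of 52 genes (left) and nonsense_mediated_decay share of 36 genes (right), with estimated counts on the horizontal and expected counts on the vertical axis (percent of the TPM of the gene; points are means and bars SD of 3 libraries; dashed line, equal values). Snrpd2, U2af1 and Srsf3 lie far above the line on the left, and Snrpb and Snrpa far below it on the right.

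The make-up of other genes of the splicing pathway differed between lists. The 14 SR kinases and SR-related proteins had a median level of 120.3 TPM, a median protein_coding share of 25.9% ± 1.7 and a retained-intron share of 51.3% ± 6.0, with at least 50% in 7 of 14. The 24 other splicing regulators had 91.7 TPM, a protein_coding share of 30.7% ± 2.3 and a retained-intron share of 46.2% ± 1.6 over 20 genes. The 19 other spliceosome genes had 17.2 TPM, a protein_coding share of 34.0% ± 4.2 and a retained-intron share of 51.1% ± 1.9 over 16 genes. The 12 exon junction and NMD factors had 19.4 TPM and a protein_coding share of 51.0% ± 6.6. Their retained-intron share was 37.2% ± 4.8 over the 6 genes that have such a transcript, with at least 50% in 2 of them. Of all protein-coding genes with such a transcript, 40.1% had at least 50%, and these lists are small. With expected counts the protein_coding share was 48.7% ± 9.0 for the other spliceosome genes and 66.9% ± 5.4 for the exon junction and NMD factors, against 37.2% ± 6.3 for the members.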

How the data were processed

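RNA-seq of chromatin-associated RNA from 3 libraries in 1 group was used. Per the file headers, the authors deposited a transcript table with estimated counts and TPM, used as the main source, and a gene and a transcript table with expected counts and TPM, used as the other quantification. The build was mm10 with the GENCODE M21 annotation per the deposited notes; the aligner, the tools, their versions and the strand setting are not given in the sources used here, so antisense or overlapping genes and retained introns may share reads with a member. Rows of phiX174 (0.266% to 0.911% of estimated counts) and ERCC spike-ins (13 to 34 counts) were left out.

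A gene's level is the sum of its transcripts' TPM, and a class share is the TPM of that annotated class over this sum. Other genes are protein-coding genes with a mean of at least 10 estimated counts. Values are means ± SD over libraries. No test was run: the smallest p that exact sign flips of 3 libraries can give is 0.25. Counts were rounded for TMM scaling in edgeR 4.0.16 (R 4.3.3), with 0.5 added to each count, or DESeq2 1.42.0 size factors as an alternative; the share and scaling steps were tested on simulated data. A 0 is compatible with up to 3 counts, which covers counting error only. Named genes are the extremes of each family in share and level, those with the largest SD or difference between quantifications, and a fixed set. The members, lists and rules were chosen with earlier results of these data known. The member left out of 2 figures is included in all counts and is not reported here. Exon structure and sequences are from GENCODE M21. Alternatives were another quantification, other filters, shares of counts and leaving out each library.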

Additional observations from a re-analysis of the deposited data

Results flagged for a closer look

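Signal outside the comparisons was found in 2 places. The symbol of Snrpert, a processed pseudogene related to Snrpe by name, matches the families without a protein_coding transcript, and its lowest estimated count over the libraries was 5.98, above the 3 counts compatible with 0, with 11.5 in replicate 1 and 9.35 in replicate 3, whereas it had 5, 0 and 2 expected counts. The control genome phiX174 had 152997, 91744 and 67167 estimated counts in replicates 1, 2 and 3.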

How the results depend on the processing

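Leaving out each replicate kept the retained-intron median of members between 46.4% and 47.8%, the NMD median between 8.37% and 8.52%, the median level between 18.8 and 26.0 TPM, and the count of members with a retained-intron share of at least 50% at 22 or 23. The members' differences from other genes stayed between 3.71 and 7.18 points (retained intron), 0.879 and 1.16 points (NMD) and 2.18 and 2.32 on the log2 scale (level), and the range of the members' shift between 0.0242 and 0.0868. With the other quantification the retained-intron median was 53.6%, the NMD median 7.62%, the differences 13.1 and 3.87 points, the median level 14.2 TPM and the level difference 2.88. With shares of estimated counts these were 42.3%, 6.89%, 12.8 and 2.32 points. Counting genes without such a transcript as 0 gave medians of 41.2% and 0, and differences of 37.4 points for retained introns and 0 for NMD, since both NMD medians were then 0. Without a filter the NMD difference was 1.62 points and the level difference 4.12. With a pseudocount of 1 the level difference was 2.04, and TPM rescaled to protein-coding genes gave a median level of 65.6. Scaling by library totals gave a range of 0.442 for members and 0.201 for other genes. The next 2 alternatives were chosen after seeing the data. At a mean of at least 10 TPM the NMD median was 8.85% and its difference 0.288 points. With 2 to 4 annotated retained-intron transcripts in both sets the mean difference was -0.48 points, negative in replicate 1 and positive in replicates 2 and 3. Of 79 shares of named members, 43 moved by more than their SD with the other quantification and 20 by over 10 points. Leaving out 1 of 3 libraries cannot move a mean by its SD, but small NMD shares shifted: Snrpa1 had 5.10%, and 0 without replicate 2, and Srsf2 had 2.47%, and 0.928% without replicate 3. The causes were not tested. No paired analysis was possible because the libraries form 1 group. Low counts limit the shares of Snrpn, Snrpg and Snrpf, with a mean of 10.3 to 14.3 estimated counts.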
